A study of Populus yunnanensis and Populus davidiana with 24 samples.

Results

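Changes in transcript levels were examined in stem cuttings of Populus davidiana, an aspen, between the moment of cutting and 120 h later. The genes described are those with 1 FPKM or more in 3 or more of the 6 libraries of these times, which were 19530 of the 43836 gene models listed. FPKM counts sequenced fragments relative to gene length and to all fragments mapped in the library. The value that decided membership, the third highest of the 6 libraries, was 1.00 FPKM for the lowest member and 0.999 FPKM for the highest gene left out. At this border, 296 members lay below 1.1 FPKM and 295 genes left out lay at 0.9 FPKM or above.

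The study sampled cuttings of 2 poplars, P. davidiana and P. yunnanensis, at 0, 48, 96 and 120 h, with 3 libraries per species and time and 24 in all. Cuttings were 15 cm long, came from annual branches and carried neither buds nor leaves. Every group had this treatment, with the 0 h group as the control, and the labels name no other agent, genotype or age. The series title names rooting differences between poplars and the WOX family. Messenger RNA came from the whole stem, so fewer cells of a type and less RNA per cell cannot be told apart.

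A leafless cutting is a wounded stem cut off from root and shoot. As background, severing a stem is known to set off wound signalling, to change hormone and sugar supply at the cut end, and in species that root from cuttings to lead cells near the vascular cambium to divide and form adventitious root primordia. WOX genes encode homeobox transcription factors known from Arabidopsis for roles in stem cells, cambium and the founding of roots. Aspens are generally known as harder to root from stem cuttings than many other poplars.

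The deposited table gives identifiers without names and none was given here, so no gene has a role assigned below, and WOX genes, hormone, wall and wound lists and tissue markers were not analysed here. The stem label was therefore not checked against markers. Genes are described by their level, time course, position and behaviour in the other poplar. Only the pair with the highest rises and the pair with the deepest falls are named.

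The number of fragments behind each library is unknown. Ratios of low FPKM values put the depth of the other 5 libraries at 0.745 to 0.886 times that of 0 h replicate 1. Between 18169 and 19070 genes reached 1 FPKM at 0 h and between 18801 and 19887 at 120 h, which overlapped. Over members, log2(FPKM + 1) correlated at 0.929 to 0.964 among the 0 h libraries, at 0.941 to 0.978 among the 120 h libraries and at 0.783 to 0.859 between the times. No pair held identical values. Along the first principal component of the 12 P. davidiana libraries, which held 46.8% of the variance, the 0 h libraries lay between -97.4 and -67.0 and the 120 h libraries between 53.7 and 65.8, with the libraries of 48 h and 96 h between them.

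The main comparison asked which genes differed between stems at 120 h and at 0 h. In P. davidiana 3536 genes rose and 2147 fell, which is 18.1% and 11% of those tested, or 29.1% together (limma on log2(FPKM + 1), Benjamini-Hochberg adjusted p under 0.05). In 5615 genes (28.8%) all 3 libraries of 120 h lay above all those of 0 h, and in 3504 (17.9%) all lay below. Among genes that rose, the replicates of the times did not overlap in 3492, and among those that fell they did not overlap in 2110. They also did not overlap in 3517 of the 13847 genes not called. The calls rest on the same libraries, so the lack of overlap in called genes is no added support. The genes that rose had a median log2 change of 1.26 (quartiles 0.90 and 1.81), and the genes that fell had one of -1.26 (quartiles -1.75 and -0.90). These sizes describe genes chosen for their change.

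Among the largest changes there were more rises than falls. A log2 change of 3 or more was found in 242 genes that rose and 80 that fell, and one of 5 or more in 42 and 6. With the libraries rescaled by the median ratio of their genes these numbers were 214 and 97, and 37 and 7. Genes that reached 1 FPKM in 1 time group alone were not set apart in these counts. Among genes called at any size of change, 389 rises and 231 falls were of this kind and had to differ. The excess of large rises is therefore a description. Whether rises were in excess over all genes depended on how libraries were scaled. The median over the tested genes was a log2 change of 0.14 in the deposited values, 0.018 after median ratio scaling and -0.028 after quantile normalization. There were 2984 rises and 2689 falls under the former scaling, and 2967 and 3127 under the latter. Without 120 h replicate 3 the falls dropped to 1387 and the rises to 2445.

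**Figure D1:**
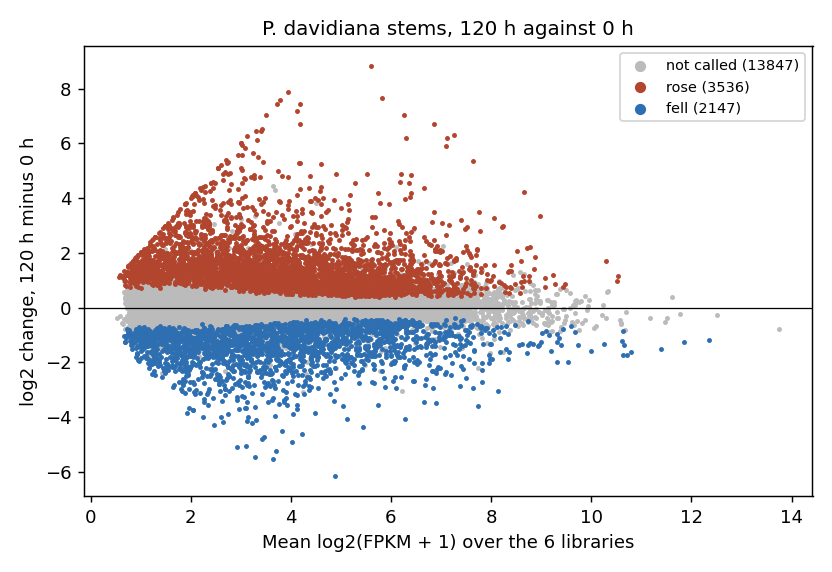
Each point is 1 of the 19530 tested genes, with its mean log2(FPKM + 1) over the 6 libraries on the x axis and its log2 change from 0 h to 120 h on the y axis; red and blue mark genes that rose (3536) and fell (2147) at an adjusted p under 0.05. The upper cloud reaches further from 0 than the lower one, and the genes of the highest level at the right lie mostly below 0.

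The balance of rises and falls differed between bands of abundance. Among genes with a mean under 2 FPKM over the 6 libraries, 11.4% rose and 8.80% fell, and among those of 20 to 100 FPKM 22.5% rose and 12.8% fell. Of the 35 genes at 1000 FPKM or more, 3 rose and 12 fell, which is 8.57% and 34.3%. The median log2 change of these 35 was -0.57. The most abundant gene at 0 h was also the most abundant at 120 h. It stood at 19559, 19080 and 16142 FPKM at 0 h and at 8582, 12101 and 11299 FPKM at 120 h. Its replicates did not overlap, but its log2 change of -0.79 did not pass the test (adjusted p = 0.359 with limma).

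**Figure D2:**
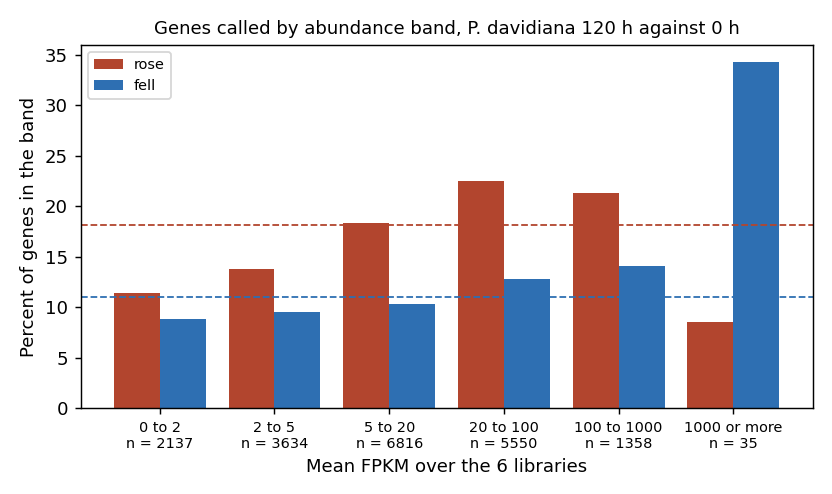
Bars give the percent of genes that rose (red) and fell (blue) in bands of mean FPKM over the 6 libraries, with the number of genes under each band, and dashed lines give the percent over all tested genes (18.1% and 11%). Rises outnumber falls in every band except that of 1000 FPKM or more, where 34.3% fell and 8.57% rose.

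In these libraries the transcript pool was spread over more genes at 120 h. The 100 most abundant genes held 22.7% ± 1.62 (SD, n = 3) of a library's total FPKM at 0 h, against 17.4% ± 1.39 (SD, n = 3) at 120 h. The smallest number of genes that held the upper 50 percent of the total was 847, 786 and 996 at 0 h and 1257, 1069 and 1048 at 120 h. Neither measure overlapped between the times (two-sided exact permutation p = 0.1 for both, the smallest that 3 libraries against 3 allow). Of the 100 most abundant genes at 0 h, 58 were among the 100 most abundant at 120 h, and 7 of the 10 most abundant were.

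The named genes were chosen for their change in P. davidiana, and the same libraries enter any difference from P. yunnanensis. The choice favours a larger change in P. davidiana, so the differences between the species below are a description. Any p-value given for them is no independent support. Over all tested genes, 15.6% differed in their change between the species (limma interaction over 24 libraries, adjusted p under 0.05).

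Potri.007G120400.v3.1, on chromosome 7, had the highest rise among genes that passed the test with no overlap and a mean of 5 FPKM or more at either time. It stood at 0.653, 0.815 and 2.94 FPKM at 0 h and at 728, 924 and 1577 FPKM at 120 h, a log2 change of 8.81 (SE 0.35, adjusted p = 1.35e-07 with limma). It was already at 83.9 to 131 FPKM at 48 h and at 554 to 744 FPKM at 96 h. Every library of a later time lay above every library of the time before, except that 120 h replicate 1 lay within the range of 96 h. In P. yunnanensis the gene started higher, at 2.36 to 37.8 FPKM, and reached 370 to 688 FPKM at 48 h. It stood at 585 to 1068 FPKM at 96 h and at 216 to 790 FPKM at 120 h. Its log2 change there was 5.38, which is 3.42 less than in P. davidiana, and the higher start in P. yunnanensis is part of that difference. The gene passed the 1 FPKM filter only with its 120 h libraries and was chosen for its change. The p-value in P. davidiana is therefore no independent support.

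Potri.004G109200.v3.1, on chromosome 4, had a listed value of 0 in every 0 h library and stood at 175, 231 and 321 FPKM at 120 h. It entered the tested genes through the 120 h libraries alone and so had to differ, and its values are given without a test of the change from 0 h. It was at 7.77, 0.832 and 1.26 FPKM at 48 h and at 126, 9.73 and 65.5 FPKM at 96 h. Most of the rise thus came after 48 h, and the 96 h libraries differed widely from one another. In P. yunnanensis it stayed between 0 and 5.11 FPKM from 0 to 96 h and was at 2.60, 1.35 and 32.4 FPKM at 120 h. Only 1 P. yunnanensis library of 120 h thus stood above the 0 h range of that species. No fold is given, since the 0 h group was at 0.

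Potri.004G106600.v3.1, also on chromosome 4, had the deepest fall. It went from 49.8, 424 and 721 FPKM at 0 h to 3.16, 2.59 and 1.94 FPKM at 120 h, a log2 change of -6.15 (SE 0.71, adjusted p = 0.00015 with limma). At 0 h the 3 libraries spread widely, but the lowest of them lay above every later library. The level was 11.97 to 17.8 FPKM at 48 h and 0.616 to 1.63 FPKM at 96 h, so the libraries of 120 h lay slightly above those of 96 h. In P. yunnanensis it went from 7.66 to 101 FPKM at 0 h to 0 to 0.555 FPKM at 48 h and 0 to 0.204 FPKM at 96 h, and stood at 6.74, 0.201 and 0.054 FPKM at 120 h. Replicate 1 of 120 h was thus close to the lowest P. yunnanensis library of 0 h, at 7.66 FPKM, while the other 2 were near 0. The log2 change in P. yunnanensis was -3.59, and the P. davidiana change was lower by a difference of -2.56. This difference did not pass (adjusted p = 0.148, limma interaction). It was -3.71 without P. davidiana 0 h replicate 1, where it passed (adjusted p = 0.0282), and -1.79 without 0 h replicate 3. With a pseudocount of 0.1 FPKM it was -1.41.

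Potri.013G129800.v3.1, on chromosome 13, went from 51.1, 92.9 and 124 FPKM at 0 h to 1.14, 0.485 and 0.988 FPKM at 120 h, a log2 change of -5.52 (SE 0.57, adjusted p = 8.28e-05 with limma). At 48 h it was at 20.04, 5.45 and 2.21 FPKM and at 96 h at 0.145 to 1.38 FPKM, so the libraries of 96 h were already at the level of 120 h. In P. yunnanensis it went from 20.7 to 77.1 FPKM at 0 h to 0 to 0.485 FPKM at 48 h, lower than any P. davidiana library of that time, and stood at 0.544, 0.569 and 0.229 FPKM at 120 h. Its log2 change there was -4.84, against -5.52 in P. davidiana. The gene passed the 1 FPKM filter only with its 0 h libraries and was chosen for its change. The p-value in P. davidiana is therefore no independent support.

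**Figure D3:**
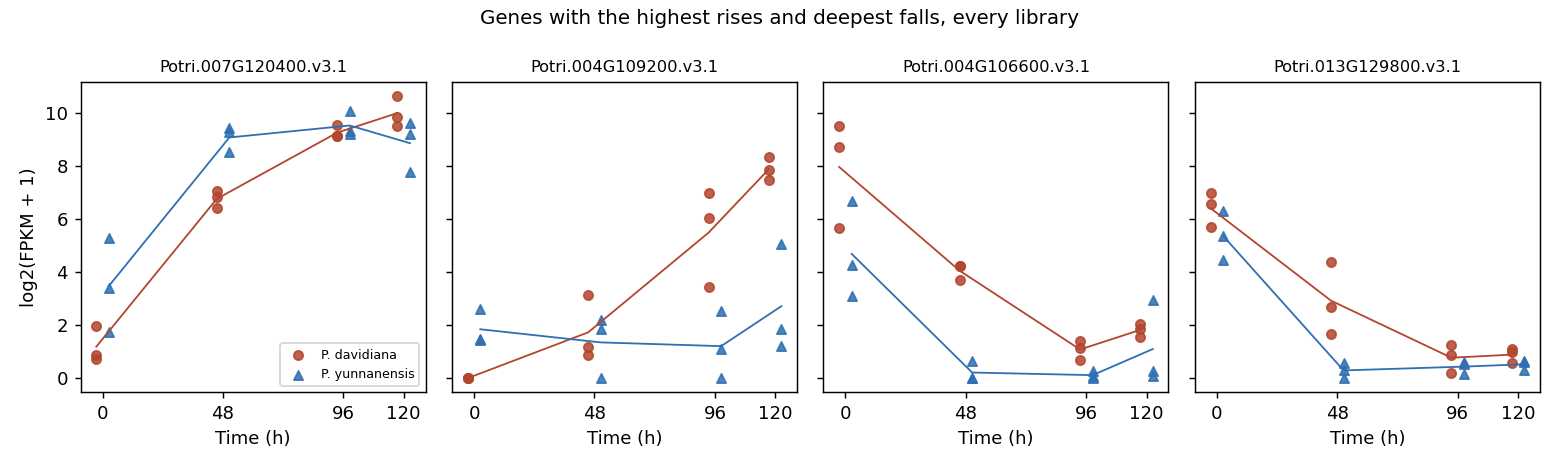
Each panel shows 1 named gene, with time in h on the x axis and log2(FPKM + 1) on the y axis; circles are P. davidiana libraries, triangles P. yunnanensis libraries (3 per time, drawn slightly apart), and lines join the means. The 2 genes on the left rise in P. davidiana, Potri.004G109200.v3.1 without a like rise in P. yunnanensis, and in the 2 on the right every later library lies below every 0 h library of its species.

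Most members were measured at both times. All 6 libraries reached 1 FPKM in 15891 members, of which 2672 rose (16.8%) and 1663 fell (10.47%), slightly smaller shares than the 18.1% and 11% over all members. Another 466 genes reached 1 FPKM in all 3 libraries of 120 h and in none of 0 h, and 277 did so in all of 0 h and in none of 120 h. These entered through 1 group only and had to differ, so the 389 that rose and the 231 that fell among them say nothing about the size of the response. They were mostly weak, with a median of 3.19 FPKM at 120 h and of 2.42 FPKM at 0 h in their own group. At 0 h 62 members were listed at 0 in all 3 libraries, of which 38 reached a mean of 5 FPKM at 120 h. The reverse held for 5 members, of which 2 had had 5 FPKM at 0 h.

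The libraries of 48 h and 96 h entered the spread used to call genes, but not the log2 change. Without 48 h replicate 2 the rises numbered 3772 and the falls 2191. Without 96 h replicate 3 they numbered 3247 and 1968. The genes that rose had a median level of 2.85, 2.96 and 3.37 on the log2(FPKM + 1) scale in the 0 h libraries, 3.75, 3.35 and 3.995 at 48 h, 4.34, 4.24 and 4.35 at 96 h and 4.64, 4.51 and 4.57 at 120 h. The genes that fell went from 4.65, 4.29 and 4.53 to 3.73, 3.54 and 3.57 at 48 h, 3.12, 3.02 and 3.07 at 96 h and 3.04, 2.87 and 2.90 at 120 h. Both sets thus stood between their end levels at 48 h and near their 120 h level at 96 h. At 48 h replicate 2 had the lowest level of the 3 libraries in both sets. Genes not called stayed at medians of 3.13 to 3.62 throughout.

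In these means of the deposited values the falls stood further along than the rises. At 48 h the median gene that fell had covered 55.1% of its change in mean log2(FPKM + 1) and the median gene that rose 39.5%, and at 96 h they had covered 92.4% and 82.4%. Of the genes that fell, 1194 (55.6%) were past the midpoint of their change at 48 h, 899 (41.9%) first passed it at 96 h and 54 (2.52%) later. Of the genes that rose, these were 1305 (36.9%), 2006 (56.7%) and 225 (6.36%). The mean moved in 1 direction over all 4 times in 2247 genes that rose (63.5%) and 1101 that fell (51.3%). At 96 h 634 genes that rose (17.9%) and 742 that fell (34.6%) stood beyond their 120 h level. At 48 h 397 genes that rose (11.2%) were below their 0 h level, and 148 that fell (6.89%) were above it. These shares describe the means of 3 libraries, and the order of the sets was not tested. They were not computed after rescaling. In the deposited values the genes not called had a median of 9.72 FPKM at 0 h, 9.52 at 48 h, 9.69 at 96 h and 10.3 at 120 h. Replicate 2 of 48 h was low in this set too, at 3.13 against 3.41 and 3.55 on the log2(FPKM + 1) scale. The part of scaling in the order of falls and rises was not tested.

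**Figure D4:**
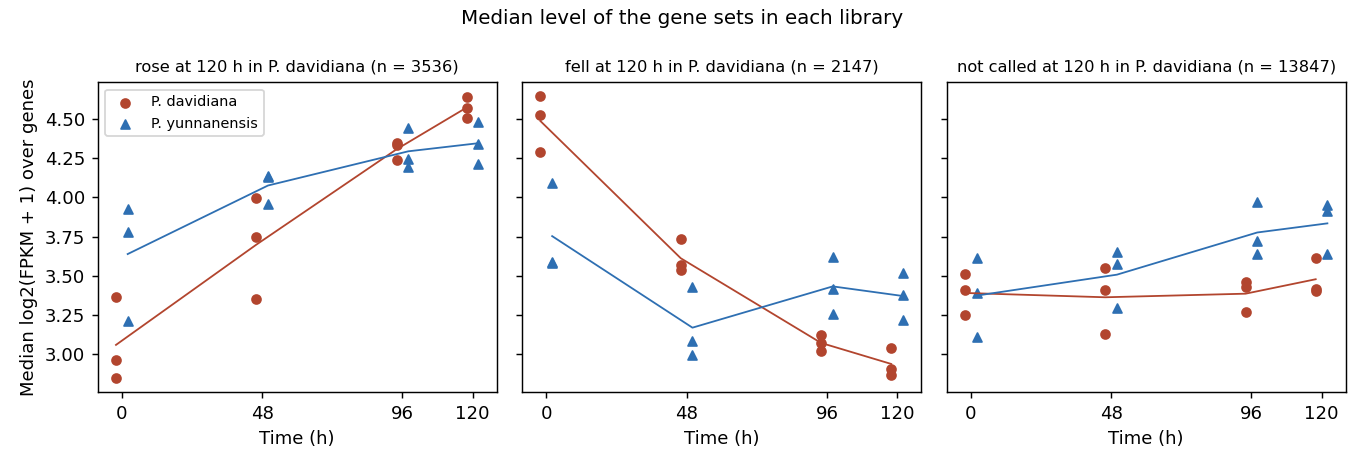
Points give the median log2(FPKM + 1) of a gene set in each library against time in h, for genes that rose (3536), fell (2147) or were not called (13847) at 120 h in P. davidiana; circles are P. davidiana, triangles the same genes in P. yunnanensis, and lines join the means of 3 libraries. In P. davidiana the first set climbs from about the level of 2.85 to 3.37 to that of 4.51 to 4.64, and the second drops from 4.29 to 4.65 to between 2.87 and 3.04.

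The change from 48 h to 96 h shares no library with the change from 0 h to 120 h. Of the genes that rose by 120 h, 89.8% had a higher mean at 96 h than at 48 h, with a median log2 change of 0.52. Of those that fell, 10.8% did, with a median of -0.45. Over all tested genes the share was 52.5% and the median 0.026. Leaving out any 1 P. davidiana library kept the first median between 0.34 and 0.65 and the second between -0.52 and -0.39. Both comparisons share the spread estimated for each gene.

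Single calls between 48 h and 96 h were few and unstable. In limma 216 genes were higher at 96 h (1.11%) and 125 lower (0.64%). Of the higher ones 194 (89.8%) were genes that rose by 120 h, which is 5.49% of these, and of the lower ones 102 (81.6%) were genes that fell, which is 4.75%. Leaving out replicate 2 of 48 h changed the 194 to 2 (of 2 higher genes) and the 102 to 1 (of 1 lower gene). Leaving out replicate 1, 2 or 3 of 96 h changed the 194 to 46, 59 or 10 (of 50, 60 or 11 higher genes). The 102 became 32, 34 or 14 (of 33, 39 or 15 lower genes). Leaving out replicate 2 or 3 of 120 h changed the 194 to 91 or 61 (of 98 or 68). The 102 became 56 or 41 (of 69 or 45). Leaving out replicate 1 or 2 of 0 h changed the 194 to 297 or 129 (of 375 or 138). Potri.007G120400.v3.1 was among the higher genes, with a log2 change of 2.499 from 48 h to 96 h (adjusted p = 0.0169), and so was Potri.004G109200.v3.1, with 3.76 (adjusted p = 0.037).

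As a share of total FPKM, the genes that rose made up 10.3% ± 1.14, 15.7% ± 1.98, 23.9% ± 0.361 and 27.3% ± 0.854 of the libraries of 0, 48, 96 and 120 h (SD, n = 3 for each time). The genes that fell made up 23.1% ± 2.31, 15.8% ± 1.67, 10.2% ± 0.270 and 8.69% ± 0.377 at these times. The values of 0 h and 120 h follow from the choice of genes. Those of 48 h and 96 h did not overlap in either set (two-sided exact permutation p = 0.1 for both, the smallest possible with 3 against 3). The remaining members held 62.7% to 67.6% of the total in the 6 compared libraries.

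The same genes were followed in P. yunnanensis, whose libraries played no part in the choice. There the genes that rose in P. davidiana held 15.1% to 21.6% of total FPKM at 0 h, 22.3% to 23.8% at 48 h, 22.1% to 24.4% at 96 h and 22.5% to 24.4% at 120 h. The genes that fell held 14.7% to 26.7%, 12.2% to 13.04%, 9.77% to 10.8% and 9.43% to 11.7%. For the rising genes the P. yunnanensis libraries of 48 h thus overlapped those of 96 h and 120 h, where the P. davidiana libraries of 48 h lay between those of 0 h and 96 h. For the falling genes the 48 h libraries lay between those of 0 h and 96 h in both species. Between 0 h and 120 h neither share overlapped in P. yunnanensis (two-sided exact permutation p = 0.1 for both). The difference in pace between the species was not tested.

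**Figure D5:**
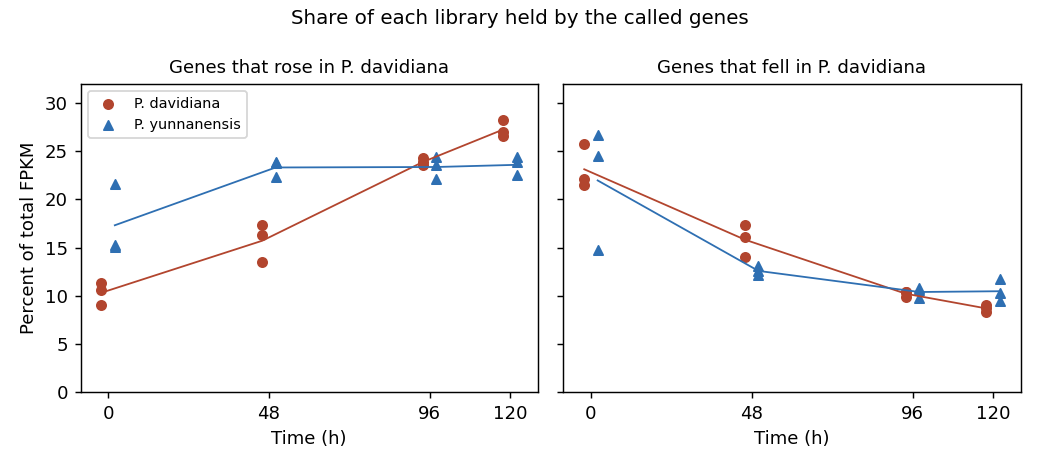
Points give the percent of each library's total FPKM held by the genes that rose (left) and fell (right) at 120 h in P. davidiana, against time in h; circles are P. davidiana libraries, triangles P. yunnanensis libraries, and lines join the means of 3. In P. davidiana the left share climbs over all times to 27.3%, and in P. yunnanensis it lies between 22.1% and 24.4% in every library after 0 h.

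Gene by gene, part of the response was shared. Of the genes that rose in P. davidiana, 1201 (33.96%) rose in P. yunnanensis and 120 (3.39%) fell there, where 22.4% of all tested genes rose and 6.34% fell (limma over the 12 P. yunnanensis libraries). Of the genes that fell in P. davidiana, 434 (20.2%) fell in P. yunnanensis and 97 (4.52%) rose. The shared genes were 27.5% of all rises and 35.1% of all falls in P. yunnanensis. The median log2 change in P. yunnanensis was 0.60 for the first set, -0.27 for the second and 0.36 for all tested genes.

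The general upward shift of P. yunnanensis was absent after median ratio scaling, which centres the libraries by its construction. The median over all tested genes was then -0.032, with 1767 rises and 2029 falls. When both species were rescaled this way, 18.5% of rises were shared where 9.05% of all genes rose, and 25.99% of falls were shared where 10.4% of all genes fell. In the deposited values without P. yunnanensis 120 h replicate 1, 652 rises (18.4%) were shared where 8.74% of all genes rose there. The shared falls numbered 243 (11.3%) where 2.91% of all genes fell. Without its replicate 3 the shared rises and falls numbered 650 (18.4%) and 238 (11.1%), where 9.24% rose and 3.21% fell. With only the compared libraries in the fit they numbered 548 (15.9%) and 195 (9.63%), where 8.29% rose and 2.66% fell. The 0 h libraries of P. yunnanensis also spread widely in the share held by the rising genes, as given above, and the part of this spread in the shared counts was not tested.

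Rises and falls were found on every chromosome. The identifiers place members on 19 chromosomes. The share of members that rose ran from 16.7% on chromosome 6 to 20.6% on chromosome 12, and the share that fell from 7.45% on chromosome 12 to 13.2% on chromosome 7. The differences between chromosomes were not tested. On unplaced scaffolds 85 of 458 members rose and 47 fell. Among 242 assembled loci without a Potri identifier 22 rose and 22 fell, which is 9.09% each.

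Neighbouring genes were compared by their identifiers, as a description with no test. Among 9454 pairs of tested genes with successive identifiers on a chromosome, both rose in 456 and both fell in 194. Of the neighbours of genes that rose, 26.6% rose and 7.60% fell, where 18.2% and 11.2% of the genes in these pairs did. Of the neighbours of genes that fell, 18.4% fell and 12.3% rose. There were 66 runs of 3 or more successive genes that rose and 25 runs that fell. The authors' counting method (not given in the sources used here) could split fragments between near-identical or overlapping neighbours, which makes single members of such runs uncertain.

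The longest runs were chosen for their length and are a description. Each held a gene that entered through 1 time group alone and so had to differ. In P. davidiana this gene had a mean of 0.0703 FPKM at 0 h on chromosome 7, and of 0.243 FPKM at 120 h on chromosome 10. On chromosome 7, 5 successive genes rose, with log2 changes of 1.18 to 7.43. Their summed level was 10.7, 9.79 and 14.6 FPKM at 0 h, 33.5 to 81.6 FPKM at 48 h, 56.9 to 380 FPKM at 96 h and 746, 316 and 670 FPKM at 120 h. In P. yunnanensis the sum was 15.9 to 117 FPKM at 0 h and 7.65 to 26.8 FPKM at 120 h. None of the 5 was called higher there, with log2 changes of -1.74 to 0.32. On chromosome 10, 6 successive genes fell, with log2 changes of -2.12 to -1.01, and 1 of them held 79.6% or more of their sum in every P. davidiana library. The sum was 3764, 944 and 1568 FPKM at 0 h and 987, 281 and 317 FPKM at 120 h. The sums overlapped, since replicate 1 was the highest of its group at every time. All 6 also fell in P. yunnanensis, by log2 changes of -3.26 to -2.02.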

How the data were processed

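The authors deposited 1 FPKM value per gene and library, per the file headers. For the aligner, counting tool, genome build and strand setting nothing is stated in the labels or headers, and mapped depth is known only as ratios. Groups and replicate numbers came from the sample titles. Nothing says that replicates are separate plants, so p-values measure the spread between libraries, which may be technical. The limma package 3.58.1 (R 4.3.3) tested log2(FPKM + 1) of the genes of the rule, with 1 mean per time over the 12 P. davidiana libraries (8 residual degrees of freedom), a variance trend and Benjamini-Hochberg adjustment over 19530 genes. A fit over 1 species was used so that no spread came from P. yunnanensis. Each log2 change refers to log2(FPKM + 1), which understates changes of low genes. The species difference (interaction) was fitted over 24 libraries (16 residual degrees of freedom) and is a description for the named genes, which were chosen on some of them. A run of the fit on simulated data used independent noise and fewer changed genes than were called here, so it does not test these calls.

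Named genes were the 2 highest rises and 2 deepest falls among called genes whose mean reached 5 FPKM at either time and whose replicates did not overlap. The genes, lists and rules were chosen with earlier results of these data known. Gene lists could not be matched, as the table holds no names. Relative depth, shares, neighbours and time courses were computed with numpy 2.4.6 and pandas 2.3.3 under Python 3.11.15, and figures drawn with matplotlib 3.10.9. Neighbours are successive listed identifiers on 1 chromosome. Alternatives were other pseudocounts, filters, scalings, library sets, variance settings, a replicate block and leaving out libraries.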

Additional observations from a re-analysis of the deposited data

Results flagged for a closer look

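Both genes below were named for having the highest rises in P. davidiana, and the libraries that chose them enter the species difference, so the choice favours a larger P. davidiana change and the p-values are no independent support. The change of Potri.007G120400.v3.1 from 0 h to 120 h was larger in P. davidiana than in P. yunnanensis by 3.42 on the log2 scale (adjusted p = 0.0127, limma interaction, which called 15.6% of the tested genes). With only the compared libraries in the fit it did not pass (adjusted p = 0.066, range over its alternatives 0.0066 to 0.066). The change of Potri.004G109200.v3.1 differed by 7.01 on that scale (adjusted p = 0.00201, limma interaction, range 0.000836 to 0.00736), a size that depends on the pseudocount. This gene was listed at 0 at 0 h in P. davidiana and passed the filter through the 120 h libraries alone, so its P. davidiana change was fixed by the choice. In P. yunnanensis 1 library of 120 h stood above its 0 h range.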

How the results depend on the processing

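The count of 5683 changed genes stayed within 1.5 times under the 13 other settings of fit, filter and scaling, from 3845 when an absolute log2 change of 1 or more was also required to 7146 with the replicate block. Leaving out 1 compared library gave 3832 to 5122 genes, 2445 to 3421 rises and 1387 to 1856 falls. The 4 named genes kept direction and call in all 19 alternatives each. They were chosen as extreme called changes, so this is no independent support. Potri.004G109200.v3.1 entered through the 120 h libraries alone, so its call was fixed by the choice. The species difference of Potri.007G120400.v3.1 was 3.42 but did not pass on the compared libraries alone (adjusted p = 0.066). That of Potri.004G106600.v3.1 did not pass in the main fit (adjusted p = 0.148, limma interaction) and ranged from -3.71 to -1.79 without 1 library. Both genes were chosen on the P. davidiana libraries, so these are descriptions. The cause was not tested.

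Replicates share numbers across times, and the labels do not say what a number marks. Deviations from the group means of 0 h and 120 h correlated at 0.0968, 0.198 and -0.018 for numbers 1 to 3. The main fit assumed no pairing. On the second principal component (15.0% of the variance) replicate 1 was the highest at every time, from 18.997 to 49.1, and replicate 2 the lowest, from -63.8 to -4.82, with replicate 3 between them. The replicate block gave 4440 rises and 2706 falls and ended no call of a named gene. It raised the rises shared with 96 h against 48 h from 194 to 505, where all higher genes went from 1.11% to 2.84%. The shared falls went from 102 to 286, where all lower genes went from 0.64% to 1.84%. Testing every gene with a value above 0 lowered the shared rises and falls to 37 and 38 (0.146% and 0.15% called). Fitting the compared libraries alone lowered them to 38 and 14 (0.215% and 0.0819% called). In these settings 79.4% to 91.2% of the genes called from 48 h to 96 h were shared. Rescaling without the 20 most abundant genes (2989 rises, 2577 falls) and leaving out libraries outside the comparison were chosen after seeing the data. The planned lists of named pathways were not run, as no names were given. The unknown depth allows no counting interval, so weak genes listed at 0 may be undetected.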
